A study of Mus musculus with 14 samples.

Results

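The pancreas library is 1 of 14 small RNA libraries of mouse tissues, and it is described here against the other 13. All libraries came from C57BL/6J mice, an inbred laboratory strain, and the labels name no treatment, age or sex. The other 13 libraries carry the labels stomach, small intestine, colon, oesophagus, liver, kidney, heart, lung, spleen, ovary, uterus, cerebellum and brain. Each tissue was sequenced once, from RNA pooled over animals, for which the labels give 5 mice at harvest and 10 mice in the pool. Values are RPM, reads per 1000000 reads of a library other than those of miR-143, a smooth muscle miRNA that filled some libraries. Every name was set against the median and the highest of the other 13 libraries. All of this was repeated with miR-148a also left out of the total, since that miRNA held most pancreas reads. With 1 library a tissue there is no replicate check, so every difference below is one between libraries, and the 95% intervals cover counting error only.

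The pancreas is mostly exocrine. Acinar cells, which make and secrete digestive enzymes, form the bulk of the organ, ducts carry the secretion away, and the islets scattered among them release insulin and glucagon. A miRNA is cut from a hairpin, and 1 arm is usually loaded onto an Argonaute protein while the other, written here with a star, is mostly lost. The loaded arm finds its messenger RNA targets mainly by its seed, bases 2 to 8. Exocrine pancreas is known for miR-148a, miR-217 and the miR-216 pair, and islets for miR-375.

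The sequences behind the pancreas-high names fall into a few seed groups, shown 5′ to 3′ with the seed in capitals, as RefSeq gives them with GRCm38.p6. The files name no build, so no coordinates are given. The first 3 share 1 seed, which no other of 1679 RefSeq mouse mature miRNAs has. The miR-216 pair and miR-217 have different seeds but neighbouring genes. The arms of miR-802 are shown because their balance differed in pancreas.
miR-148a: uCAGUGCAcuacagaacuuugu
miR-148b: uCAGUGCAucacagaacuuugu
miR-152: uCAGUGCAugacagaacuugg
miR-216a: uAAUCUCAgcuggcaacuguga
miR-216b: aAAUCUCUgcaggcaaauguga
miR-217: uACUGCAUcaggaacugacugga
miR-802: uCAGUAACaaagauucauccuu
miR-802*: aCGGAGAGucuuugucacucag
miR-184: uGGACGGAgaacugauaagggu
Counted from the 5′ end, miR-148b differs from miR-148a by C9U and U10C, and miR-152 differs from miR-148a by C9U, U10G and U20G over the 21 bases both have. miR-216b differs from miR-216a by U1A, A8U, U11A and C17A, and A8U lies inside the seed. The genes Mir216a, Mir216b and Mir217 lie within 50 kb of each other on chromosome 11, Mir148a lies on chromosome 6 and Mir802 on chromosome 16. Of 25 names looked up, 24 had a RefSeq sequence, and miR-375 is named only.

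The pancreas library was the shallowest, with 622132 reads in all and 597154 other than miR-143. The other libraries held 1134677 to 9341000 reads in all and 86545 to 6502821 other than miR-143, with the library labelled colon at the low end. A read in pancreas was worth 1.67 RPM, or 4.81 RPM with miR-148a also left out, when 207954 reads made up the total. At 100 RPM pancreas held 60 reads (77 to 129 RPM, exact Poisson interval) with the first total and 21 reads (63 to 154 RPM) with the second. The floor for a count of 0 was 3 reads, or 5.02 and 14.4 RPM with these totals. The exact 95% interval of such a count reached 6.18 and 17.7 RPM. Leaving out miR-148a raised all other pancreas values by 1.52 on the log2 scale and those of other libraries by at most 0.05. The library labelled uterus was high, and the one labelled colon low, in miRNAs of intestinal epithelium, so both are called by label only.

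miR-148a alone filled most of the pancreas library, and all 3 marker miRNAs of the organ, miR-148a, miR-217 and miR-216a, were highest there. miR-148a took 389200 reads, 62.6% of all pancreas reads (62.4 to 62.7%, Clopper-Pearson), and 65.2% of those other than miR-143. Its share elsewhere ran from 0.0317% in cerebellum over a median of 0.641% to 3.54% in stomach. The next names in pancreas were let-7f at 9.48% of all reads, let-7c at 5.87%, miR-378 at 5.42%, let-7a at 5.17% and miR-143 at 4.01%. The 8 let-7 names together held 25.1% of reads other than miR-143 in pancreas, against a median of 20.1% and a highest value of 87.1%, in ovary. With miR-148a also left out, the let-7 names held 72.2% of what remained in pancreas. The median elsewhere was then 20.5%, with 87.3% in ovary, 68.8% in brain and 67.6% in spleen at the high end. let-7 members are near-identical, and how the authors counted reads that match several of them is not given.

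**Figure D1:**
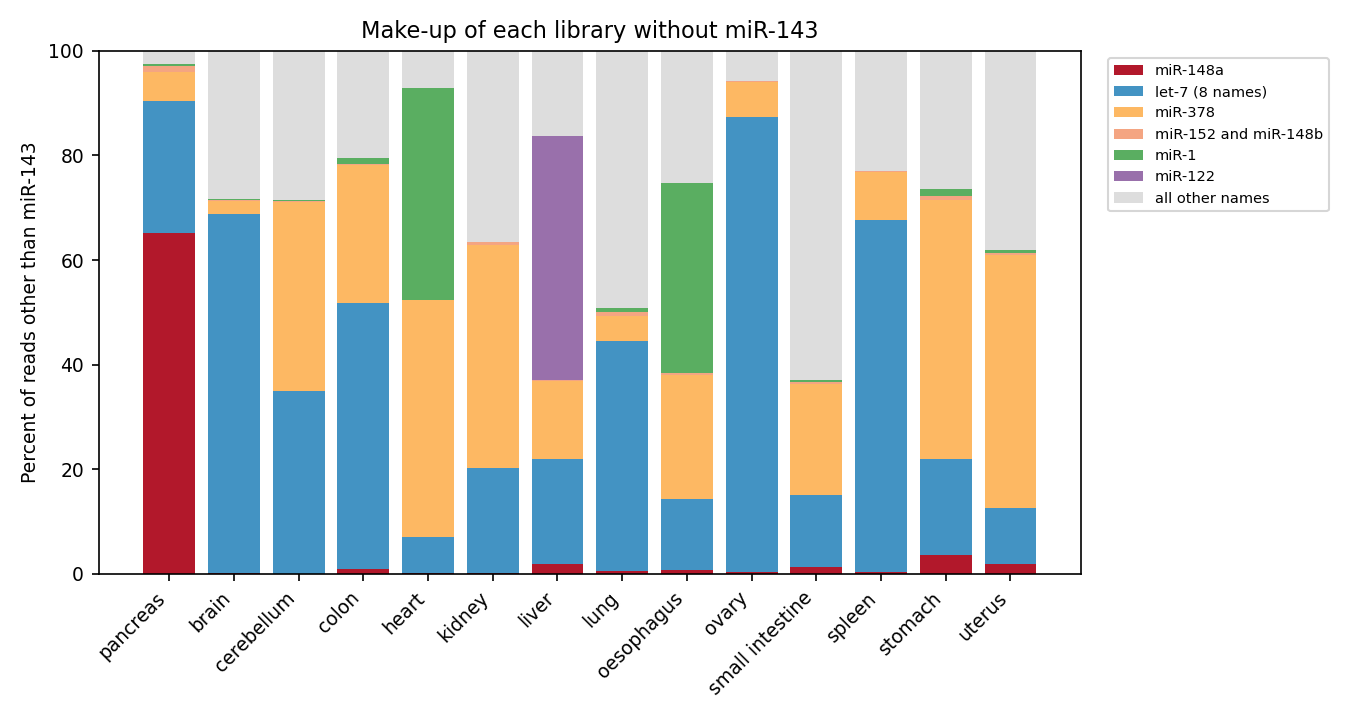
Stacked bars give the percent of reads other than miR-143 taken by 6 groups of names and by all others, per library, with pancreas at the left. miR-148a holds 65.2% of the pancreas bar and at most 3.54% of any other bar.

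So few names carried the pancreas reads that it was the least diverse library with the first total. Its effective number of names, the exponential of the Shannon entropy, was 4.16, against 4.36 in heart, a median of 12.5 and 29.7 in lung. Scaled to 86545 reads in every library, pancreas was expected to hold 135 names, and the others 176 in liver to 358 in brain, with a median of 268. Without miR-148a the effective number in pancreas was 9.37, the fifth lowest, so its lowest place rested on that miRNA. The expected number of names without it, at 85806 reads, was 185 in pancreas, above 175 in liver and 181 in ovary and below the other 11. At 10 RPM or more pancreas had 112 names with the first total, against 151 to 328 elsewhere, and it had the fewest with the second total too.

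The miR-148 and miR-152 family, 3 miRNAs with 1 seed from hairpins on 3 chromosomes, was highest in pancreas for every main arm, though by very unequal margins. miR-148a, whose best known targets include DNA methyltransferase 1, had 651758 RPM in pancreas, against 317 in cerebellum (the lowest), a median of 6413 and 35354 in stomach (the highest). No other library came near it, and the pancreas value was 18.4 times that of stomach (18.3 to 18.6) and 102 times the median (100 to 103). Intervals of a fold over the median, here and below, are against the 1 library that held the median, lung for miR-148a. They leave out the spread between libraries. Without the library labelled uterus, or without the one labelled colon, the log2 difference of miR-148a from the median was 7.01 in place of 6.67. miR-152 had 9150 RPM from 5464 reads in pancreas, against 113 to 6241 RPM elsewhere, with a median of 1839 and the highest value again in stomach. miR-148b had 1655 RPM in pancreas (1553 to 1761), against 168 to 1623 RPM elsewhere, with a median of 743, so its lead over kidney was within counting error. The fold over the median was thus very unequal within the family, with 102 for miR-148a, 4.97 for miR-152 and 2.23 for miR-148b in pancreas.

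Ratios of reads within a library do not depend on its total, and they showed the same inequality. Pancreas held 71.2 reads of miR-148a per read of miR-152 (69.4 to 73.2), against 0.466 in kidney to 26.4 in liver, with a median of 3.85. It held 394 reads of miR-148a per read of miR-148b (370 to 420), against 0.426 to 54.5 elsewhere. For both pairs the intervals of all 13 other libraries lay below that of pancreas. Between the minor members, pancreas had 5.53 reads of miR-152 per read of miR-148b (5.17 to 5.92), inside the range of the others, which reached 9.63.

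The miR-216a, miR-216b and miR-217 cluster was far higher in pancreas than elsewhere, with miR-217 and miR-216a at the largest folds over the median of all names called. miR-217, which targets Sirt1 among others, had 3091 RPM from 1846 reads in pancreas, against a range of 0 in ovary to 289 RPM in the library labelled colon, with a median of 12.6. That colon value came from 25 reads (187 to 426 RPM), and the next library, labelled uterus, had 82.0 RPM. miR-216a had 610 RPM from 364 reads in pancreas, against 0 to 208 RPM elsewhere with a median of 2.99, and its highest other value, in the library labelled colon, rested on 18 reads. miR-216b had 164 RPM from 98 reads in pancreas, against 0 to 57.8 RPM elsewhere with a median of 2.72, and the highest other value was 5 reads in the library labelled colon. All 3 were above every other library. Against the median, pancreas was 246 times higher for miR-217 (171 to 368), 204 times higher for miR-216a (97.9 to 510) and 60.4 times higher for miR-216b, with an interval from 32.3.

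Against the highest library, which was the shallow one labelled colon each time, the margins were 10.7 times for miR-217 (7.23 to 16.6), 2.93 times for miR-216a (1.83 to 5.00) and 2.84 times for miR-216b (1.18 to 8.94). Without that library the log2 difference from the highest became 5.22 in place of 3.42 for miR-217, 3.37 in place of 1.55 for miR-216a and 3.79 in place of 1.49 for miR-216b. The star arms of the cluster were rare but were also highest in pancreas. miR-216b* had 9 reads and miR-216a* 5 reads in pancreas, or 15.1 and 8.37 RPM, and the highest values elsewhere were 0.433 and 0.602 RPM. Within the cluster, pancreas held 5.07 reads of miR-217 per read of miR-216a (4.53 to 5.69), against 1.16 in brain to 5.80 in lung over 9 libraries with at least 20 reads of the pair. The intervals of 6 of these 9 lay below that of pancreas, and none lay above it.

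miR-802, studied mostly in liver, was high in pancreas on both arms, and its arms stood in a balance unlike that of most libraries. The main arm had 303 RPM from 181 reads in pancreas, against 0 to 436 RPM elsewhere with a median of 9.06, and small intestine was above pancreas. The star arm had 219 RPM from 131 reads in pancreas (183 to 260), against 0 to 27.7 RPM elsewhere with a median of 2.13. miR-802* was thus 7.92 times higher in pancreas than in small intestine (6.14 to 10.2), although miR-802 was at 0.695 of its level there (0.594 to 0.810). Pancreas held 1.38 reads of miR-802 per read of miR-802* (1.10 to 1.74). Small intestine, at 15.7 (13.1 to 19.1), was the highest of 7 other libraries with at least 20 reads of the pair. Liver, at 1.71 (1.40 to 2.09), overlapped pancreas, and 4 of 7 other libraries with at least 20 reads had intervals above it.

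Of the islet list, miR-184 and miR-375 were above the median in pancreas, and miR-7a, miR-7b and miR-204 were below it with the first total. miR-375, which restrains insulin secretion and supports beta cell mass in mice, had 161 RPM from 96 reads in pancreas (130 to 196), against 0 to 796 RPM elsewhere with a median of 10.8. The library labelled uterus (796 RPM), small intestine (533 RPM) and stomach (527 RPM) were above pancreas. miR-7a, an endocrine and neural miRNA, had 56.9 RPM from 34 reads in pancreas, against 0 to 963 RPM elsewhere with a median of 223. miR-7b had 3 reads in pancreas, or 5.02 RPM, against 0 to 541 RPM elsewhere with a median of 11.6. Pancreas held 2.82 reads of miR-375 per read of miR-7a (1.89 to 4.31), the highest of 12 libraries. The next, in the library labelled uterus, was 2.16 (2.02 to 2.30), which lay inside the pancreas interval, and the other 10 intervals lay below it. The 5 islet names measured at 10 RPM or more in some library split into 2 above and 3 below the median with the first total, and 3 above and 2 below with the second.

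Several other miRNAs were also above the median in pancreas. miR-184, a miRNA of epithelia and brain, had 556 RPM from 332 reads in pancreas, against 13.3 to 1132 RPM elsewhere with a median of 85.5, below brain and stomach only. In the miR-183, miR-96 and miR-182 cluster, 1 transcript of sensory organs and other epithelia, miR-182 had 1686 RPM in pancreas, against 28.8 to 5315 RPM elsewhere with a median of 601. miR-183 had 278 RPM in pancreas, against 14.9 to 4075 RPM elsewhere with a median of 173. The cluster was also tilted in pancreas toward miR-182, with 6.07 reads per read of miR-183 (5.14 to 7.19), against 0.262 in oesophagus to 4.04 in brain. Pancreas was above all 13, and 10 intervals lay below its own. All 4 measured names of the cluster were above the median with both totals, but with the libraries labelled colon and ovary left out miR-183 itself was 1.30 below it on the log2 scale (first total).

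**Figure D2:**
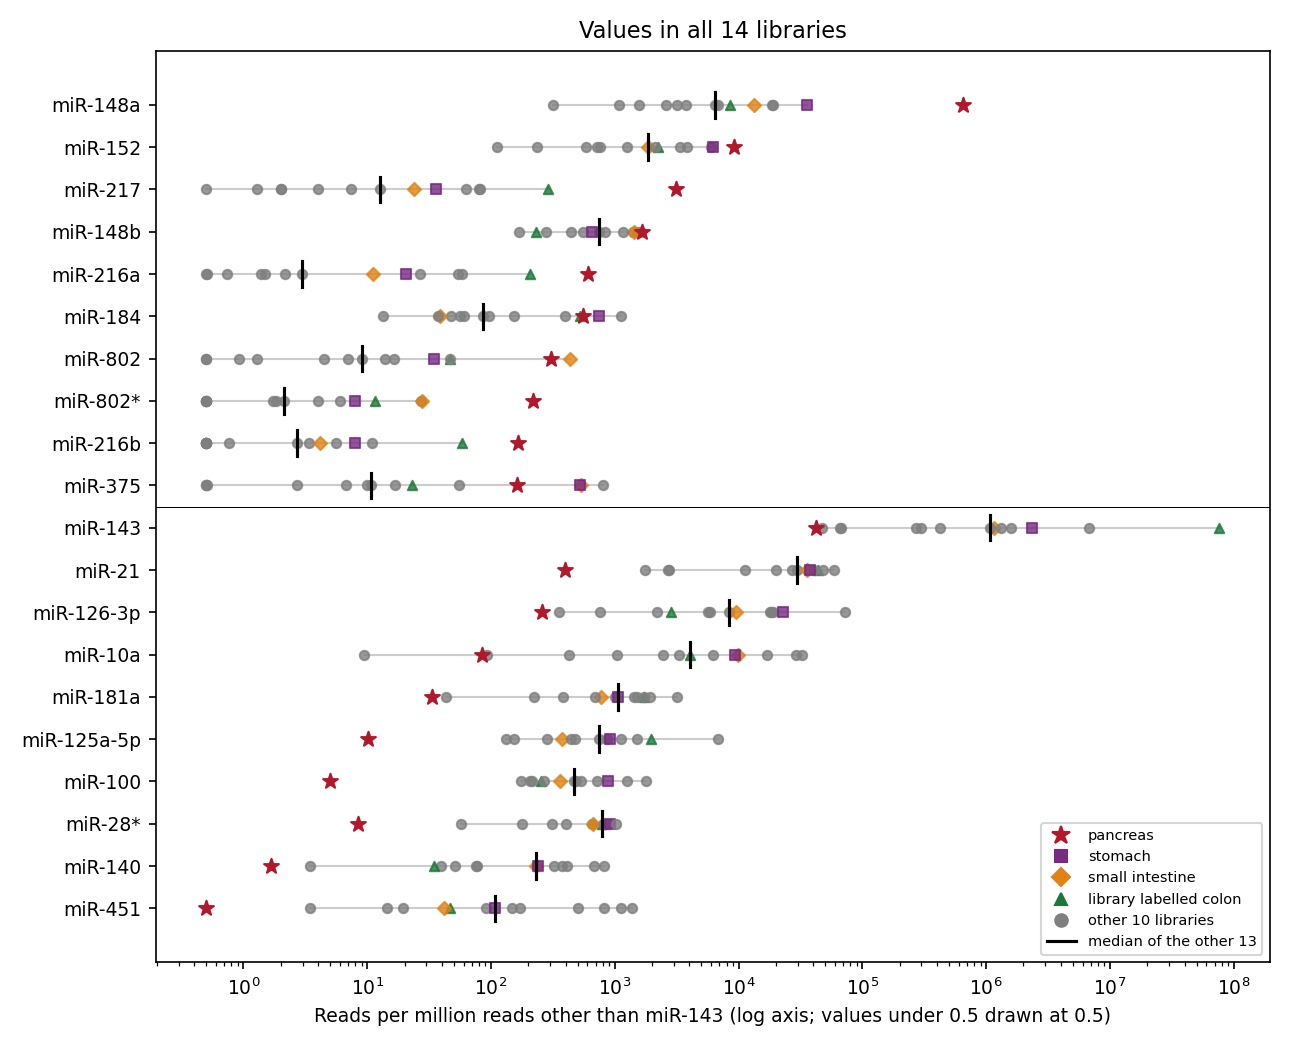
RPM of reads other than miR-143 in all 14 libraries, on a log axis, for 10 names high in pancreas (top) and 10 low in pancreas (bottom), with pancreas as a star and a bar at the median of the other 13. Pancreas is the highest point for miR-148a, miR-152, miR-217, miR-148b, miR-216a, miR-802* and miR-216b, and the lowest for the bottom names other than miR-10a.

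Across all names, few were far higher in pancreas and many were far lower. Some library held 10 RPM or more of 457 names, of which 3 (0.656%) had at least 100 RPM in pancreas and 4 times the highest other library, with 1 RPM added to both. They were miR-148a, miR-217 and miR-802*. Against the median of the others, 9 names (1.97%) were at least 4-fold higher in pancreas, namely miR-217, miR-216a, miR-148a, miR-802*, miR-216b, miR-802, miR-375, miR-184 and miR-152. The names lower in pancreas by 4-fold or more, with a median of 100 RPM or more elsewhere, numbered 74 (16.2%). With either total only 108 names reached that median. A call of higher needed 100 RPM in pancreas instead, so the shares called higher and lower are not alike. Over all 457 names, 37 were above the median and 381 below it, with a median log2 difference of −1.85. In 224 of them pancreas had no read, which at this depth often cannot be told from a low level.

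Leaving miR-148a out of the total moved this balance. With that total, 6 names (1.31%) were 4-fold over the highest other library, the added 3 being miR-216a, miR-216b and miR-152. Against the median, 16 names (3.5%) were 4-fold higher in pancreas, all 9 above among them. The added 7 were miR-182, miR-148b, miR-423-5p, miR-148a*, miR-130b, let-7a and miR-183. The names 4-fold lower numbered 51 (11.2%), all of them among the 74. Over all names 82 were then above the median and 336 below, with a median log2 difference of −1.14, and 45 names passed from below to above. The 23 names that lost the call of being lower included miR-378, miR-101a, miR-30c, miR-30e, miR-23a, miR-23b, miR-27a, miR-22, miR-92a and miR-31.

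Other scalings also moved the split. With the total of all reads, 12 names were 4-fold higher in pancreas than the median and 41 lower. Without the 5 most abundant names of each library in its total, 18 were higher and 75 lower, of which 55 were among the 74. With median-of-ratios factors, which raised pancreas by 2.81 on the log2 scale and moved the others by −1.61 to 1.26, the numbers were 40 and 16. All 9 names called higher with the first total were called so with each of these scalings, while the direction of mid-sized differences depended on the scaling. The names that stayed 4-fold lower with median-of-ratios factors numbered 16, all of them among the 74.

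**Figure D3:**
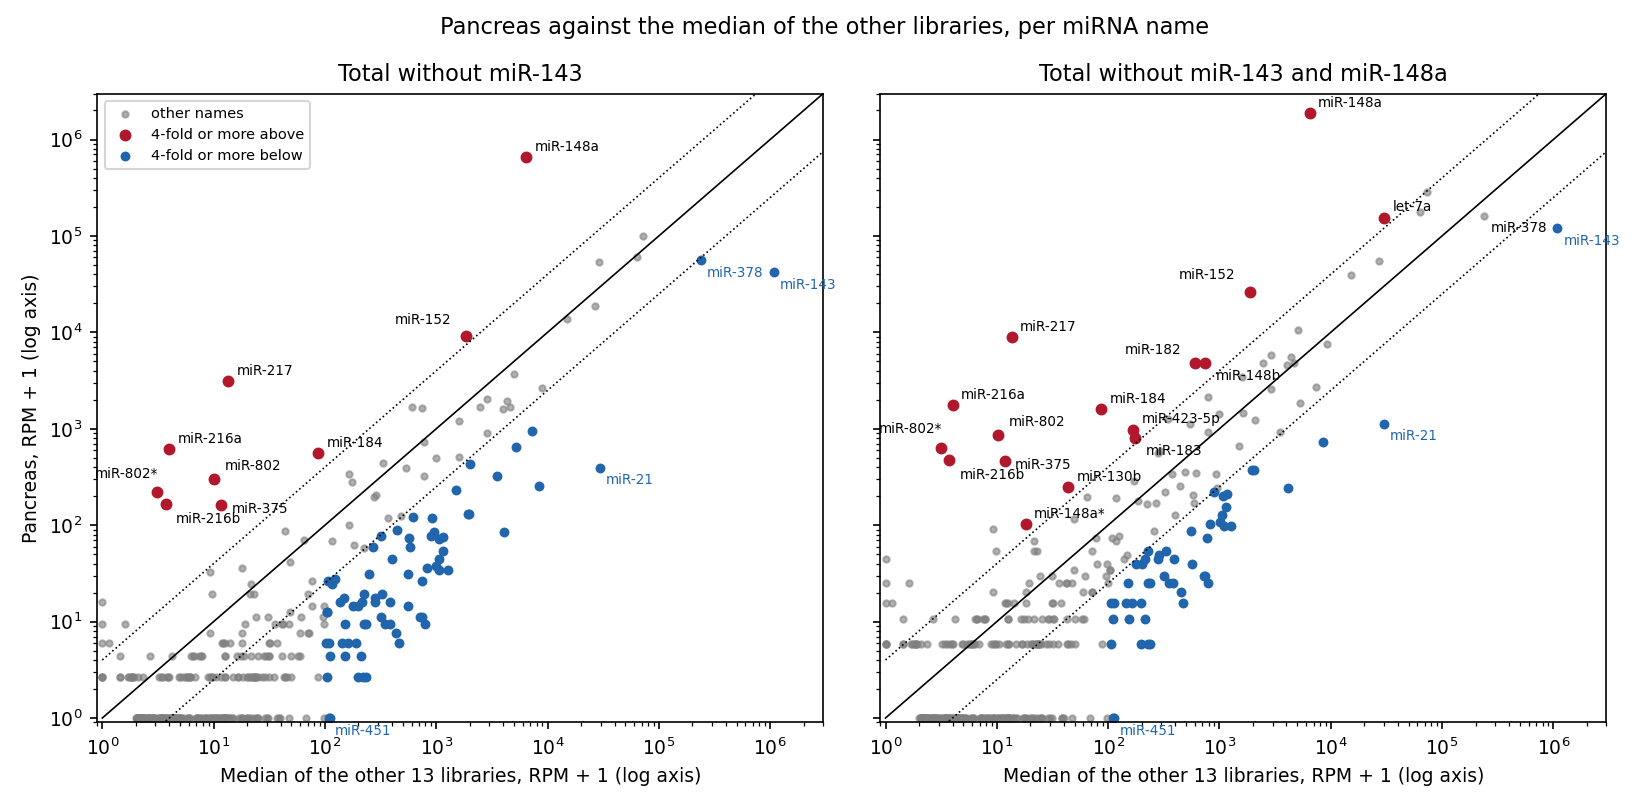
RPM + 1 in pancreas (vertical) against the median of the other 13 libraries (horizontal), on log axes, with the total without miR-143 (left) and also without miR-148a (right). Dotted lines mark 4-fold, red names are called higher and blue names lower, 9 and 74 on the left and 16 and 51 on the right.

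Just outside 4-fold over the median with the first total lay miR-182 at 2.80, miR-148b at 2.22 and miR-423-5p at 2.06, all with 1 RPM added, and just inside lay miR-152 at 4.97, miR-184 at 6.44 and miR-375 at 13.7. On the lower side names lay close to the limit on both sides, with miR-27a at 4.07, miR-31 at 4.11 and miR-378 at 4.21 inside, and miR-7a at 3.87, miR-1839-5p at 3.83 and miR-30a at 3.41 outside. With the second total, the names nearest the limit over the highest library were miR-152 at 4.06 inside and miR-148b at 2.92 outside. let-7f at 3.89 lay just outside the limit over the median with that total, and miR-183 at 4.55 just inside. On the lower side with that total, miR-99b at 4.04 lay inside and miR-151-3p at 3.96 outside.

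Markers of smooth muscle, vessels, connective tissue and blood were among the lowest names in pancreas. In bulk tissue, fewer cells of a type and less RNA per cell cannot be told apart. miR-143, set against the other reads, had 41828 RPM in pancreas, against 47504 in cerebellum, a median of 1074330 and a highest value of 76099520 in the library labelled colon. miR-145, its cluster partner, had 6 reads or 10.0 RPM in pancreas, against 8.56 to 4709 RPM elsewhere with a median of 316. miR-145* had no read in pancreas, against 7.03 to 2045 RPM elsewhere with a median of 109 RPM. By the exact interval it was at least 16.7-fold lower than the median, or 5.84-fold with the second total. All 4 smooth muscle names were below the median, with a median log2 difference of −5.73 and, without miR-148a in the total, −5.01.

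miR-126-3p, the endothelial miRNA of the Egfl7 gene, had 256 RPM from 153 reads in pancreas, against 356 to 71736 RPM elsewhere with a median of 8336, the lowest of 14. Its other arm, miR-126-5p, had 70.3 RPM in pancreas, against 150 to 8651 RPM elsewhere. miR-199a-3p and miR-214, which come from mesenchymal cells, had 18 and 2 reads in pancreas, or 30.1 and 3.35 RPM, against medians of 554 and 56.8 RPM. All 5 mesenchymal names were below the median, with a median log2 difference of −4.13, and so were both endothelial names at −4.46. With miR-148a left out these became −2.67 and −2.97.

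Blood-borne names were scarce as well. miR-451, the erythroid miRNA cut by Argonaute 2, had no read in pancreas, against 3.42 in ovary to 1365 RPM in spleen with a median of 107.5. By the exact interval pancreas was at least 17.3-fold lower than the median, or 6.24-fold with the second total. miR-486 had 4 reads in pancreas. miR-142-3p, a miRNA of all white blood cells, had 9 reads or 15.1 RPM in pancreas, against 8.31 to 22075 RPM elsewhere with a median of 386. miR-150 and miR-155 of lymphocytes had 1 read each and miR-223 of myeloid cells had none in pancreas. All 7 white blood cell names were below the median with the first total and 6 of 7 with the second, with medians of −3.99 and −2.87, miR-142-5p being the exception. All 4 red blood cell names were below with the first total and 3 of 4 with the second, and the exception with the second total was miR-144.

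Families that many tissues share were also lower in pancreas, by more than the median of all names. That median includes many scarce names. Over names with a median of 100 RPM or more elsewhere it was −3.23 with the first total and −1.73 with the second. The miR-181 family, which shares the seed ACAUUCA and is known from lymphocyte development, had 22 reads in all in pancreas. miR-181a, at 33.5 RPM there, stood against 43.3 to 3189 RPM elsewhere with a median of 1061, and miR-181d had 1 read in pancreas against a median of 217 RPM. All 4 members were below the median in pancreas, with a median log2 difference of −6.13 and −5.18 with the second total. Its mature sequences differ outside the seed.
miR-181a: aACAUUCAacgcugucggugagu
miR-181b: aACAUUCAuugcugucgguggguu
miR-181c: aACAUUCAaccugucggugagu
miR-181d: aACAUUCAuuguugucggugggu

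The miR-99/100 and miR-125 families, whose genes lie in shared clusters, followed with medians of −4.96 and −3.88, and all 6 names were below. miR-100, which targets Mtor, had 3 reads or 5.02 RPM in pancreas, against 174 to 1770 RPM elsewhere with a median of 466. miR-125a-5p, a relative of the worm developmental timing miRNA lin-4, had 6 reads or 10.0 RPM in pancreas, against 131 to 6831 RPM with a median of 746. Both were the lowest of 14 with either total. miR-10a and miR-10b, from the Hox clusters and thus graded along the body axis, had 83.7 and 33.5 RPM in pancreas, against medians of 4056 and 1266 RPM. Brain, at 9.44 RPM of miR-10a and 5.22 RPM of miR-10b, was lower still.
miR-100: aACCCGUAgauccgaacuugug
miR-125a-5p: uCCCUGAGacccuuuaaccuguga
miR-10a: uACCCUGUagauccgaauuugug
miR-10b: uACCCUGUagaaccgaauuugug
The sequences are shown because the seeds of miR-100 (ACCCGUA) and miR-10a (ACCCUGU) are alike but not the same. miR-10b differs from miR-10a by U12A alone, so the counting of reads could split the pair.

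Growth-linked families were below as well. The 6 names of the miR-15/16 family, which restrain cell cycle genes, had a median of −4.49, and miR-16 had 53.6 RPM in pancreas, against 55.4 to 4413 RPM elsewhere with a median of 1147. For the 12 names of miR-17-92 and its paralogues, an oncogenic cluster in lymphoma, the median was −3.07 with 11 below, and miR-93 had 36.8 RPM in pancreas, against 67.4 to 2082 RPM elsewhere. With the second total these medians were −3.04 and −2.09. For miR-17-92 the deficit with the first total was no larger than the −3.23 of names with a median of 100 RPM or more elsewhere. miR-103, from introns of the pantothenate kinase genes, had 129 RPM in pancreas, against 472 to 4024 RPM elsewhere, and miR-221 had 3 reads in pancreas, against 10.3 to 1154 RPM elsewhere. None of the family medians of this paragraph and the one before turned above 0 with any scaling tried.

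Among abundant single names, miR-21 and miR-28* were far lower in pancreas than elsewhere. miR-21, a miRNA of proliferating and stressed tissue that targets Pdcd4, had 394 RPM from 235 reads in pancreas (345 to 447), against 1740 to 58775 RPM elsewhere with a median of 29436. It was 74.8 times lower in pancreas than the median (65.8 to 85.4) and 26.6 times lower with the second total (23.4 to 30.3), the lowest of 14 with both. miR-28* had 8.37 RPM from 5 reads in pancreas, against 57.2 to 1028 RPM elsewhere with a median of 786. miR-140, a cartilage miRNA whose star arm is the abundant one here, had 1 read in pancreas, against 3.42 to 818 RPM elsewhere. miR-186 and miR-872 had 4 and 6 reads in pancreas, against medians of 430 and 715 RPM, and both were the lowest of 14.
miR-21: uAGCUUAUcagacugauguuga
miR-28*: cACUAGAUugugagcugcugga

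Over the 108 names with a median of 100 RPM or more elsewhere 9 were above the median and 99 below, with a median deficit of 9.36-fold. The 108 names were chosen by their level elsewhere, with no minimum in pancreas, and such a choice favours a deficit in pancreas. With the second total 27 were above and 81 below, with a median deficit of 3.33-fold, and pancreas was the lowest of 14 for 54 of these names with the first total and 23 with the second.

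Several defining markers of other organs were at or near 0 reads in pancreas, but miR-1, miR-192 and miR-802 were not. miR-122, the hepatocyte miRNA, had 6 reads or 10.0 RPM in pancreas, against 10.3 RPM in ovary to 466024 RPM in liver. miR-9 and miR-124 of neurons had 5 and 3 reads, miR-206 of skeletal muscle 2 reads, and miR-205 of squamous epithelium none in pancreas. miR-194 and miR-215 of intestinal epithelium had 5 and 21 reads in pancreas, or 8.37 and 35.2 RPM, each the lowest of 14 with the first total. miR-192 of the same list had 504 RPM in pancreas, against 328 to 71090 RPM elsewhere with a median of 1608, and with the second total it had 1447 RPM in pancreas against a median of 1619. miR-802, described above, belongs to the hepatocyte list too. miR-1, the striated muscle miRNA, had 3691 RPM from 2204 reads in pancreas, against 41.8 RPM in liver to 405138 RPM in heart with a median of 4967. Its partners miR-133a and miR-133b had 14 and 1 reads in pancreas. Among these lists, the summed level was the lowest of 14 in pancreas for smooth muscle, endothelium, intestinal, white blood cell and red blood cell names with the first total. With the second total the white blood cell sum stayed the lowest. The smooth muscle and intestinal sums then ranked 11 of 14 from the highest, and the endothelium and red blood cell sums 12 of 14.

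For another set of families the direction depended on miR-148a. All 5 miR-200 names, which mark epithelium such as ducts, were below the median with the first total, with a median of −0.50, and above it with the second, at 1.01. With miR-148a in the total, that median was −2.43 with the libraries labelled colon and ovary left out and 0.04 without the one labelled uterus. miR-200c led them with 735 RPM in pancreas, against 21.2 to 16273 RPM elsewhere with a median of 774, which lay in the library labelled colon. The let-7 list, which counts miR-98 among its 9 names, had a median of −0.12 with 3 above. With the second total all 9 were above, at 1.37. The miR-29 family, which targets collagens, had medians of −0.56 and 0.54, but its members did not move together. miR-29a was at −0.56 and 0.95, and miR-29c* also crossed the median. miR-29b stayed below with both totals, at −2.76 and −1.32, as did miR-29a*, and miR-29c was above with both, at 0.12 and 1.61. The medians over all 457 names were −1.85 and −1.14.

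The miR-30 family, at −2.84 and −1.33, and miR-26 with miR-101, at −2.10 and −0.59, stayed below with both totals but were above, at 0.44 and 1.08, with median-of-ratios factors. miR-378, from an intron of Ppargc1b and the most abundant name of several libraries, had 56421 RPM in pancreas, against 25026 RPM in brain to 495327 RPM in stomach with a median of 237451. It was 4.21 times lower in pancreas than the median (4.16 to 4.25). With the second total it was 0.56 below on the log2 scale, no longer 4-fold. In the Dlk1-Dio3 imprinted cluster, which is brain-rich, 26 of 27 names were below the median and 1 was at it with the first total, and 23 were below and 3 above with the second. The list median was −1.85 and −0.94. The most abundant of them in pancreas was miR-379, with 394 RPM, against 56.9 to 13742 RPM elsewhere, and it was 0.44 below the median on the log2 scale with the first total and 1.07 above it with the second.

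**Figure D4:**
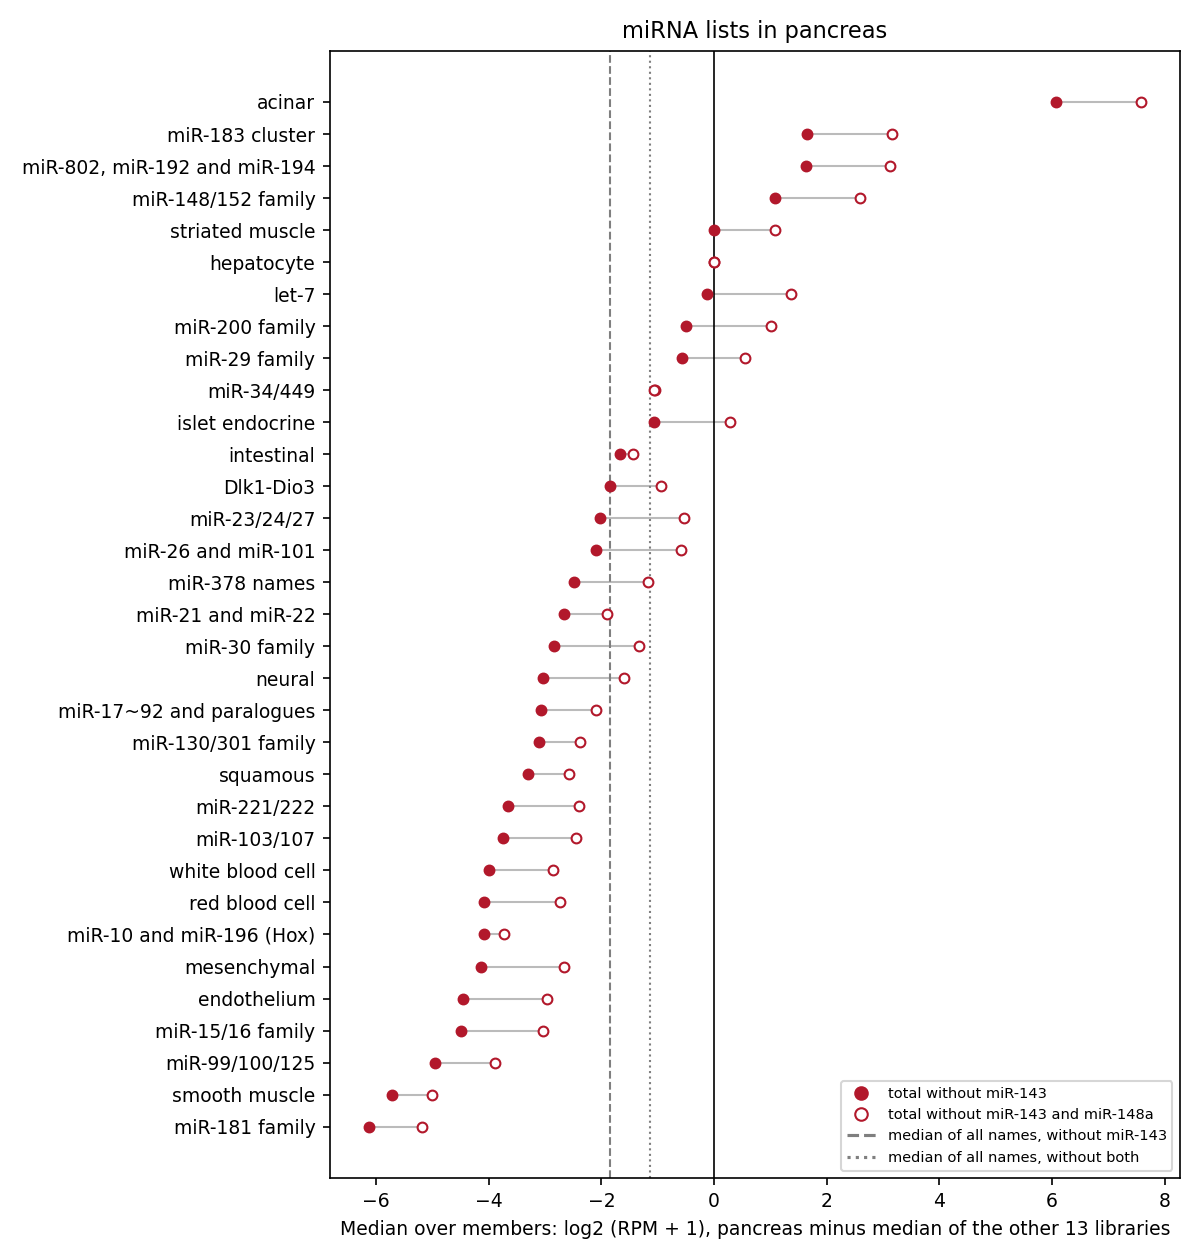
Median over the members of each miRNA list of the log2 (RPM + 1) difference, pancreas minus the median of the other 13 libraries, with the total without miR-143 (filled) and also without miR-148a (open). Grey lines mark the same median over all 457 names, −1.85 and −1.14. Acinar names stand at 6.07 and 7.58 and the miR-181 family at −6.13 and −5.18.

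Star arms made up less of the pancreas library than of any other. The 331 starred names held 0.0966% of the pancreas reads other than miR-143 (0.0889 to 0.105%), against 0.327% in ovary to 2.65% in lung with a median of 1.01%. Without miR-148a their share in pancreas was 0.277% (0.255 to 0.301%), still the lowest, with ovary at 0.328%. Of 577 star reads in pancreas, miR-30a* gave 137, miR-802* 131 and miR-140* 78. Abundant starred arms weigh heavily in such sums, and of 61151 star reads in lung miR-30a* gave 22195 and miR-140* 19602. How much of the low share in pancreas lies in such hairpins was not tested.

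In the pancreas-high family the main arm outnumbered the star arm by more in pancreas than in any other library with star reads. Other abundant hairpins were one-sided in pancreas too, with 33692 reads of miR-378 and 11291 of let-7b, each for 1 read of its star. Pancreas had 18533 reads of miR-148a per read of miR-148a* (12124 to 29940), from 389200 and 21 reads, against 49.0 in cerebellum to 923 in ovary with a median of 422. It had 5464 of miR-152 for 1 of miR-152* (interval of the ratio from 980), against at most 821 elsewhere, and 988 of miR-148b for 1 of miR-148b* (from 177), against 6.96 to 57.5. For miR-148a only the interval of ovary, from 1 star read (165 to 36496), overlapped that of pancreas. For miR-152 the intervals of oesophagus, small intestine, ovary and the library labelled colon overlapped that of pancreas. For miR-148b those of ovary and the library labelled colon did. miR-27b also had a higher ratio in pancreas than in all 13, at 149 (40.9 to 1236) from 2 star reads, against 4.07 to 49.0. Its pancreas interval overlapped those of lung, stomach, small intestine and the library labelled colon. The other way round, miR-183 had 55.3 reads per star read in pancreas (18.6 to 271), against 15 in the library labelled colon to 4468 in kidney with a median of 1140, and miR-101a had 285 (78.5 to 2359), against 279 to 1864. Both were inside the range of the others. miR-217 had 615 reads per star read in pancreas, from 3 star reads, with too few elsewhere for a comparison.

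**Figure D5:**
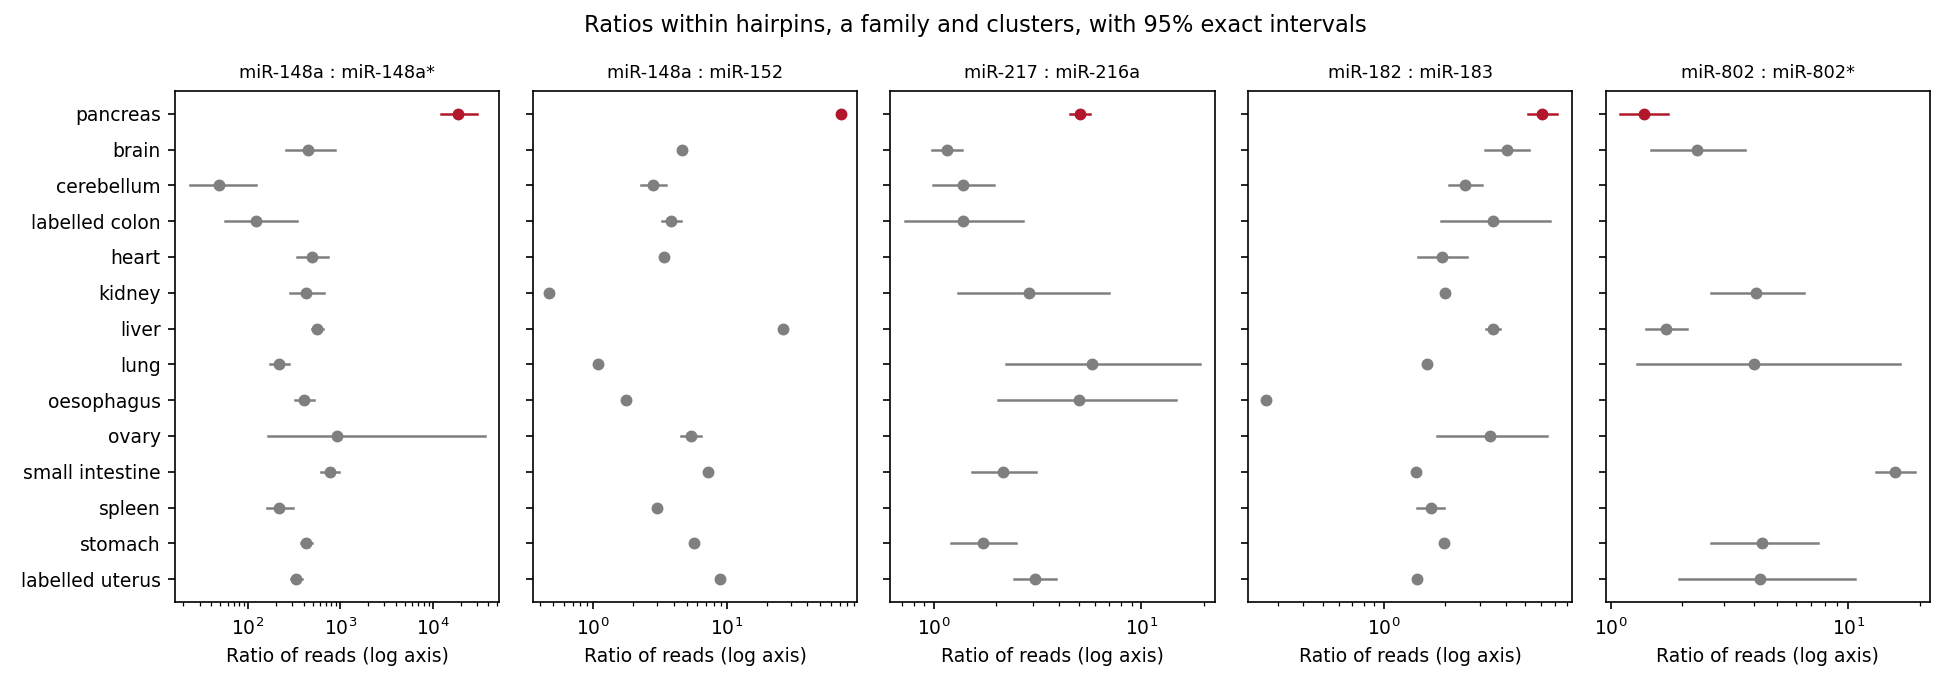
Ratios of reads within each library, on log axes, with exact 95% intervals, pancreas at the top in red. Libraries with under 20 reads of a pair or no read of the second name are left out. The pancreas ratio is the highest for miR-148a to its star, miR-148a to miR-152 and miR-182 to miR-183, and the lowest for miR-802 to its star.

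By rank correlation over all names, pancreas was most like the library labelled uterus, small intestine and the library labelled colon, and least like brain. Spearman's rho across the 457 names, which share library depth and names at 0, was 0.763 with the library labelled uterus, 0.759 with small intestine, 0.757 with the library labelled colon and 0.745 with stomach. The lowest values were 0.519 with brain and 0.526 with cerebellum. Over names at 100 RPM or more in either library, stomach came first at 0.643 (133 names), ahead of lung at 0.610 and small intestine at 0.586. Pearson's r of log2 values put liver, at 0.813, beside the library labelled uterus, at 0.814, and cerebellum lowest at 0.590. Stomach was also the library next to pancreas for miR-148a and miR-152.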

How the data were processed

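The authors deposited raw counts of reads for each miRNA name in 14 libraries, with no scaling seen in the values. Per the labels' protocols, Trizol RNA of several mice was pooled per tissue and sequenced after a standard Illumina preparation. The sources used here do not give the trimming, aligner, miRNA release or build, nor the treatment of reads that match several names. Counts were divided by the library total without miR-143, or also without miR-148a, and multiplied by 1000000. A call needed 100 RPM on the higher side and 4-fold, with 1 RPM added. No test was possible with 1 library per tissue. Intervals are exact (Poisson, Clopper-Pearson, conditional binomial) at 95%, and reads without molecular identifiers are not independent molecules. The 33 miRNA lists held 211 names, of which 202 were in the table. The members, lists and rules were chosen with earlier results of these data known. Named miRNAs are list members, the 15 most abundant, those called over the highest library, the 15 largest differences each way, those at the limits and the 8 hairpins with the most unusual arm ratio, except where stated. The calls were tested on simulated data. Python 3.11.15, pandas 2.3.3, numpy 2.4.6, scipy 1.17.1 and matplotlib 3.10.9 were used. Alternatives were other totals, factors, minimums, folds and pseudocounts and fewer libraries, and leaving out the colon library alone was added after the data were seen.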

Additional observations from a re-analysis of the deposited data

How the results depend on the processing

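The count of names 4-fold over the highest other library was 3 and became 6 without miR-148a in the total, 5 with all reads, 7 without the 5 most abundant names of each library, 10 with median-of-ratios factors, 5 at 2-fold, 5 without the libraries labelled colon and ovary, and 5 without the one labelled colon, and in each case the 3 names remained. The count over the median was 9 and became 16 without miR-148a, 18 without the 5 most abundant names and 40 with median-of-ratios factors. The count under the median was 74 and became 41 with all reads, 16 with median-of-ratios factors and 42 at a minimum of 300 RPM. The other alternatives kept each count within 1.5 times. With 10 RPM added the counts were 3, 9 and 70. Of 33 list medians, 8 changed sign under some alternative. Those of miR-30, miR-26 and miR-101, miR-378 names and miR-23/24/27 did so with median-of-ratios factors alone, to 0.44, 1.08, 0.40 and 0.90. Those of let-7, miR-200, miR-29 and islet names did so also without miR-148a, to 1.37, 1.01, 0.54 and 0.29, and under other totals, and let-7 without the libraries labelled colon and ovary (0.28) and miR-200 without the one labelled uterus (0.04). Median-of-ratios factors raised pancreas by 2.81 on the log2 scale, and liver came next at 1.26. No paired analysis was possible because each tissue has 1 library. The 597154 pancreas reads limit what is seen below 5.02 RPM, and the 86545 of the library labelled colon limit the highest value of scarce names.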

Other observations

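Some hairpins whose arms carry 5p and 3p names, or whose star arm is the abundant one, had an arm balance in pancreas outside most other libraries. They were picked after their values were seen, and no total enters the ratios. Pancreas had 59 reads of miR-142-5p, from a hairpin of blood cells, and 9 of miR-142-3p, a ratio of 6.56 (95% interval from 3.23), against a median of 0.435 over 12 libraries, of which 10 had intervals below, and ovary at 12.8 was higher. For miR-423, from the Nsrp1 gene, pancreas had 203 reads of the 5p arm and 11 of the 3p arm. The ratio was 18.5 (10.1 to 37.6), against 0.0968 to 8.83 in the other 13. Of these, 11 had intervals below, and ovary and the library labelled colon overlapped pancreas. miR-872 had 6 reads and miR-872* 24 in pancreas, a ratio of 0.25 (0.0836 to 0.628), against 0.8 to 62.2 elsewhere, and 12 of 13 intervals lay above. The erythroid pair went the same way, with 3 reads of miR-144* and 11 of miR-144 in pancreas, a ratio of 0.273 (0.0489 to 1.03), against 1.33 to 22.5 in 11 libraries, of which 10 had intervals above. The counts behind these pancreas ratios are small, and what sets them was not tested.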
